A study of Homo sapiens with 12 samples.

Results

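MiR-103 and miR-107 are near-identical microRNAs made from hairpins that lie in introns of the pantothenate kinase (PANK) genes. They were represented by 3 precursor rows, MIR103A1, MIR103A2 and MIR107, of the 1881 microRNA precursor rows in the table. The 3 rows were chosen by gene name, with earlier results of these libraries known, so their tests are not independent evidence. Both lines are human melanoma cells. Dabrafenib, which blocks the BRAF kinase, acts on A375, and A375-BIR is a derivative of A375 that became resistant during prolonged culture with the drug. Each line received either 0.1% DMSO, the vehicle, or 200 nM dabrafenib, with 48 h given for the treatment. Small RNA was sequenced from 3 biological replicates of each of the 4 groups, A375 in DMSO, A375 in dabrafenib, A375-BIR in DMSO and A375-BIR in dabrafenib, 12 libraries in all. Only 1 resistant derivative was sequenced, so resistance and other differences between these 2 lines cannot be told apart. The question was how the rows differed between the lines and with the drug, singly and summed.

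Pantothenate kinases catalyse the first committed step of coenzyme A synthesis, and each of the 3 hairpins is processed from the intron of such a gene. A microRNA finds its targets mainly through its seed, the bases near its 5′ end. MiR-103 and miR-107 share that seed and are known to repress DICER1, the enzyme that cuts microRNA hairpins, and CAV1, through which they affect insulin signalling. MiR-107 has also been described as a p53-responsive microRNA.

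The mature sequences were taken from RefSeq (hg38) to show how little separates the family. Capitals mark the seed, bases 2 to 8 from the 5′ end.
miR-103a-3p: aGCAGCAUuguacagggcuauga
miR-107: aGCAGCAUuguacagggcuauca
The only difference in 23 bases is G22C, counted from the 5′ end of miR-103a-3p, so the first 21 bases are identical. No other of the 2370 mature names in the RefSeq table carries this seed. A read that ends before base 22 can have come from either microRNA. In hg38 the 21 shared bases occur at 3 places, which are the 3 hairpins. The whole of miR-103a-3p occurs at 2 of them and the whole of miR-107 at 1.

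The hairpins differ more than the mature arms. Capitals here mark the 3p arm, which gives the mature microRNA.
MIR103A1: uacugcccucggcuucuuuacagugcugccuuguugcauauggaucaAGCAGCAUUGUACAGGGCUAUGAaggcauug
MIR103A2: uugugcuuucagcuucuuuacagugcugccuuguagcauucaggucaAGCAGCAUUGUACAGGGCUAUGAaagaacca
MIR107: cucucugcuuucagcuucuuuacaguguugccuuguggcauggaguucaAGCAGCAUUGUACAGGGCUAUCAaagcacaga
The longest run shared by MIR103A1 and MIR103A2 was 27 bases, and the longest run that either shared with MIR107 was 24 bases.

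MIR103A1 (ENSG00000199035.2) lies at chr5:168560896-168560973 on the minus strand, in an intron of 2235 bases of PANK3. MIR103A2 (ENSG00000199024.1) lies at chr20:3917494-3917571 on the plus strand, within a PANK2 intron of 1620 bases. MIR107 (ENSG00000198997.2) lies at chr10:89592747-89592827 on the minus strand, in an intron of 4419 bases of PANK1. Every host transcript in GENCODE 44 that spans a hairpin holds it in an intron, 2 of 2 for PANK3, 8 of 8 for PANK2 and 3 of 3 for PANK1. Host and hairpin share the strand at each locus.

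One feature separates the miR-103 hairpins from MIR107. The annotation places MIR103B1 opposite MIR103A1 and MIR103B2 opposite MIR103A2, each 62 bases long and wholly inside the hairpin it faces. Their mature product is the exact reverse complement of miR-103a-3p and is shown for that reason.
miR-103b: ucauagcccuguacaaugcugcu
No precursor row lies opposite MIR107. The study's methods name RSEM at its standard settings, which do not use strand, and no strand option is given. Without strand, reads in the overlap of a gene and its antisense partner cannot be told apart. Whether this bears on the counts of these rows was not tested. How the counting treated genes that overlap is not given.

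**Figure D1:**
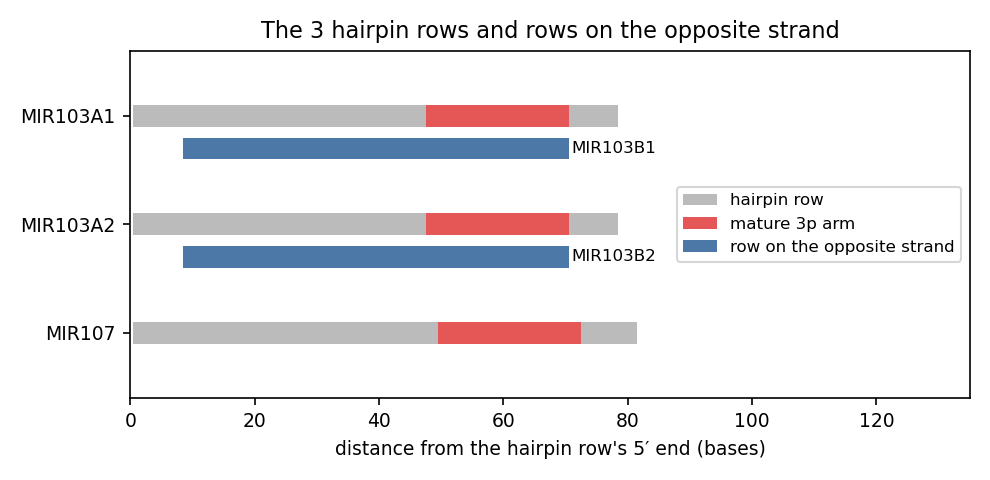
Positions of the hairpin rows, their mature 3p arms and the rows on the opposite strand, in bases from the 5′ end of each hairpin. MIR103B1 and MIR103B2 span bases 9 to 70 of their hairpins and so cover the whole mature arm at bases 48 to 70, while MIR107 has no such partner.

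MIR103A1 was listed at 0 in all 12 libraries. MIR103A2 had 1 expected count in A375 DMSO replicate 2 and 0.5 in each of A375-BIR DMSO replicate 2 and A375-BIR dabrafenib replicate 1, and was at 0 in the other 9 libraries. The antisense rows MIR103B1 and MIR103B2 were at 0 in all 12 libraries. A count of 0 over all libraries allows up to 3 counts, or 3.28 CPM (counts scaled to a common library total), and a count of 0 in a single library allows between 24.4 and 85.5 CPM. These limits cover counting error only.

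The zeros were shared by rows of the same layout. Of the 1877 rows matched to the annotation, 106 overlap another precursor row on the opposite strand, in 53 pairs. Only 2 of these 106 rows had any count, or 1.89%, against 974 of the 1771 rows without such an overlap, or 55.0%. The 106 rows summed to 2.5 expected counts, 2 of them in MIR103A2 and 0.5 in MIR499A. None of them reached 100 counts over the 12 libraries, whereas 165 of the other rows did. The zeros of MIR103A1 and of the antisense rows are therefore given as table entries and were not read as absence of the RNA. Their cause was not tested.

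**Figure D2:**
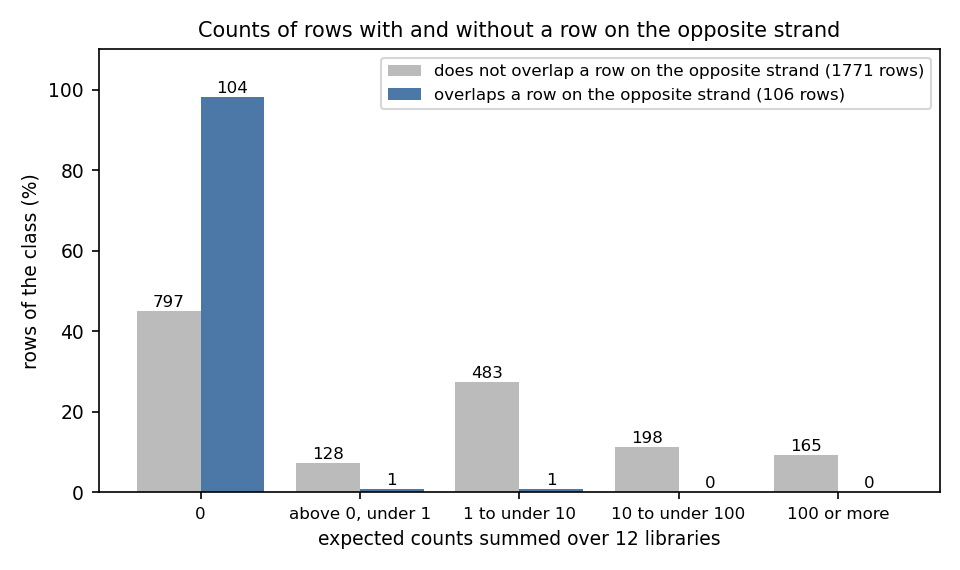
Share of precursor rows (%) by their expected counts summed over 12 libraries, for rows with and without a row on the opposite strand; the number over each bar is the number of rows. Of the rows that overlap an opposite-strand row, 104 of 106 stood at 0, against 797 of 1771 others.

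MIR24-1 and MIR24-2 gave the same picture within a single microRNA. The hairpins of both yield miR-24, and MIR24-1 faces MIR3074 on the opposite strand while MIR24-2 faces no row. MIR24-1 was at 0 and MIR24-2 had 1691.46 expected counts. MIR103A1 and MIR103A2 both face an antisense row and together had 2 counts. In 14 duplicated pairs chosen by name and without an opposite-strand row, the first copy held 13.9% to 98.0% of the pair's counts, with a median of 53.1%. Among the 10 of these pairs with 100 or more counts the range was 43.7% to 98.0% and the median 50.2%. MIR181A1 and MIR181A2, the most counted pair, divided 50.1% to the first copy, while MIR29B1 held 98.0% of its pair. None of these 14 pairs had a copy at 0. Outside the 14, a copy at 0 does occur among barely counted rows, as in MIR4315-2, at 0 beside 1 count in MIR4315-1.

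**Figure D3:**
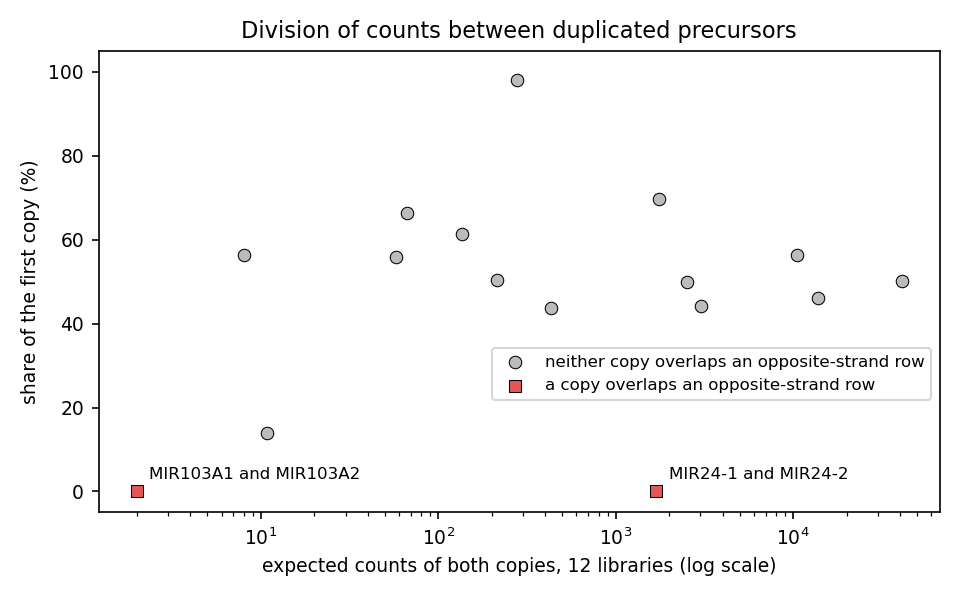
Share of the first copy (%) in the counts of each duplicated pair against the expected counts of both copies over 12 libraries (log scale). MIR103A1 with MIR103A2 and MIR24-1 with MIR24-2, the pairs shown in which a copy faces an opposite-strand row, stand at 0, and the 14 other pairs range from 13.9% to 98.0%.

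MIR107 held nearly all counts of the family. It had 46.25 expected counts over the 12 libraries, rank 218 of 1881 rows, and a count above 0 in each of them. It made up 100% of the family in 9 libraries, 94.7% in A375-BIR DMSO replicate 2, 86.7% in A375-BIR dabrafenib replicate 1 and 57.1% in A375 DMSO replicate 2. The difference between the lines in this share, A375-BIR minus A375, was 4.05 percentage points. It turned to -3.10 without A375 DMSO replicate 2, where the family had only 2.33 counts. The share follows from the near absence of counts in MIR103A1 and MIR103A2, so it is given with no test. The share of MIR103A1 in the pair of miR-103a rows was 0% in the 3 libraries where it was defined, and it was not tested for the same reason.

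The MIR107 counts were partly fractional. Of its 12 values 5 were whole, 6 ended in 0.33 or 0.67 and 1 ended in 0.25, to within 0.006. Expected counts become fractional when a read is divided between places. The parts that would complete these fractions were not in MIR103A1, which was at 0 throughout, and the row they went to was not traced. Since the first 21 bases are shared, the MIR107 row can hold reads of miR-103a, and its values are uncertain as a measure of miR-107 alone.

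In A375-BIR the MIR107 row stood above its level in A375 with either treatment. In A375-BIR in DMSO it had 8.67, 9 and 13 expected counts, or 81.5, 74.6 and 105.9 CPM. In A375 in DMSO it had 1, 1.33 and 1 expected counts, or 12.9, 10.9 and 11.5 CPM. All 3 A375-BIR libraries were above all 3 A375 libraries. In dabrafenib A375-BIR had 3.25, 3.33 and 4 expected counts, or 92.7, 55.6 and 84.0 CPM. A375 in dabrafenib had 0.67, 0.67 and 0.33 expected counts, or 14.1, 13.0 and 8.93 CPM. The lines again did not overlap. Of the 538 precursor rows tested, 53 were higher in A375-BIR without overlap in either treatment, or 9.85%, and MIR107 was one of them.

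**Figure D4:**
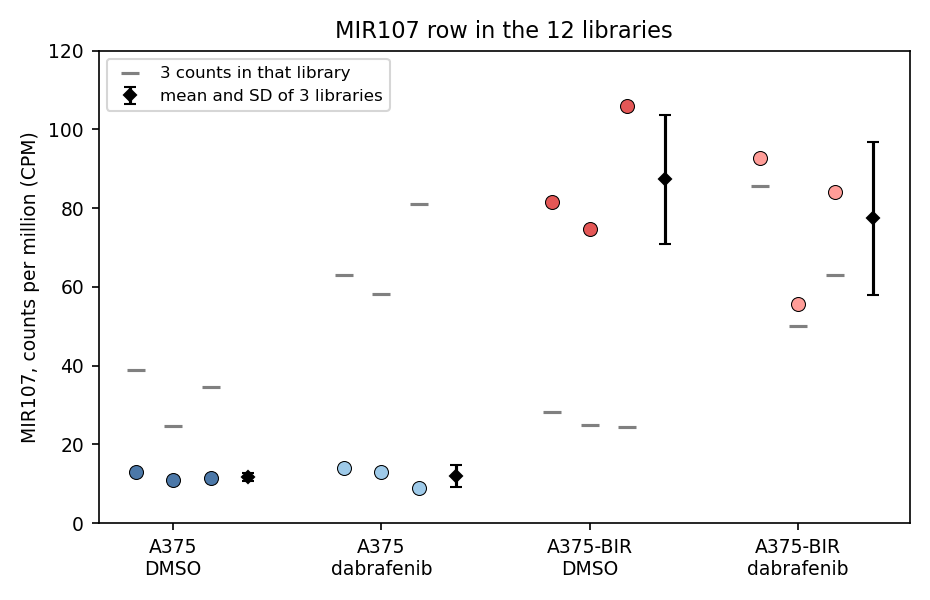
MIR107 in CPM of the library total, 1 point per library in 4 groups of 3; diamonds and bars are the group mean and SD, and grey dashes mark what 3 counts are worth in that library. The A375-BIR libraries lie between 55.6 and 105.9 CPM and the A375 libraries between 8.93 and 14.1 CPM, where each value is under 3 counts.

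Group means ordered the levels as A375-BIR in DMSO with 87.3 ± 16.4 CPM (SD, n = 3), A375-BIR in dabrafenib with 77.4 ± 19.4 CPM, A375 in dabrafenib with 12.01 ± 2.73 CPM and A375 in DMSO with 11.8 ± 1.04 CPM. The 2 groups of A375-BIR differed by less than their spread, and so did those of A375. By rank of the group mean, MIR107 was row 169 in A375-BIR in DMSO and row 343 in A375 in DMSO. In A375 each value was between 0.33 and 1.33 expected counts, so these SDs do not measure precision.

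Depth differed between the treatments. The libraries held 106427 to 122792 expected counts in A375-BIR in DMSO and 77264 to 121802 in A375 in DMSO, but 35070 to 59899 in A375-BIR in dabrafenib and 36955 to 51532 in A375 in dabrafenib. MIR107 had 5 expected counts in the 6 A375 libraries together and 41.25 in the 6 A375-BIR libraries. The ratio of its CPM, A375-BIR over A375, was 7.07 over both treatments, with an exact 95% counting interval of 2.78 to 22.8. It was 7.53 in DMSO, with an interval of 2.63 to 43.2. In dabrafenib it was 6.04, with an interval of 1.14 to 48.7, from 10.58 counts against 1.67. These intervals were computed on counts rounded to whole numbers and cover counting error only.

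The model across all precursors gave the same direction. Fold changes are A375 over A375-BIR on the log2 scale, so negative values are higher in A375-BIR, and the call was an adjusted p (FDR) below 0.05 in edgeR's quasi-likelihood test. Over both treatments MIR107 differed by -2.42 ± 0.72 (SE), with an FDR of 0.00452. Here 134 of 538 rows passed, or 24.9%, and 35 rows had a more negative fold change than MIR107. In DMSO it differed by -2.91 ± 0.90, with an FDR of 0.00838, where 19.3% of the rows passed. In dabrafenib the value was -1.94 ± 1.15 with an FDR of 0.306, which did not pass, where 16.7% of the rows did. The model used rounded counts, so the A375 dabrafenib values of 0.67, 0.67 and 0.33 entered it as 1, 1 and 0. Within each treatment every A375-BIR library was above every A375 library. Exchanging lines within treatment, a two-sided exact permutation test on MIR107 CPM gave p = 0.005, the smallest that 400 arrangements allow. Within either treatment 3 against 3 libraries allow no p below 0.1, and this was the value in both. These tests leave out a possible pairing of the DMSO libraries by replicate number. With lines exchanged only within those pairs in DMSO, a test added after seeing the data, the exact permutation p was 0.0125 over both treatments and 0.25 in DMSO, the smallest that 160 and 8 arrangements allow.

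The family sum, in which the 3 rows were added before rounding, is close to MIR107 by construction. MIR107 gave 46.25 of its counts, MIR103A2 gave 2 and MIR103A1 none, so its values are not a second result. The zeros of MIR103A1 were not read as absence, so the sum may miss miR-103a. It differed by -2.34 ± 0.70 over both treatments, with an edgeR FDR of 0.00427. In DMSO it was -2.60 ± 0.84 with an FDR of 0.0132. This call was lost without A375-BIR DMSO replicate 2, with an FDR of 0.0501, and without A375 DMSO replicate 3, with an FDR of 0.0617. In dabrafenib the sum differed by -2.08 ± 1.12 with an FDR of 0.243, which did not pass. The sum of MIR103A1 and MIR103A2 alone did not reach the count filter and was not tested. No member and no sum was kept by edgeR's default count filter, which passed 175 rows.

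With dabrafenib the MIR107 row showed no change that its counts could resolve. In A375 the ratio of CPM, dabrafenib over DMSO, was 1.05, with an exact 95% counting interval of 0.117 to 12.2. In A375-BIR it was 0.846, with an interval of 0.395 to 1.78. Both intervals cover counting error only. The fitted log2 changes were 0.49 ± 1.37 in A375 (edgeR FDR 0.907) and -0.48 ± 0.76 in A375-BIR (FDR 0.779). They rest on rounded counts, unlike the ratios of CPM. The same test called 53 of the 538 rows in A375, or 9.85%, and 53 in A375-BIR. Exchanging treatments within each line gave p = 0.555 by the exact permutation test of MIR107 CPM.

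The family sum changed by 0.14 ± 1.31 in A375 (edgeR FDR 1) and by -0.39 ± 0.73 in A375-BIR (FDR 0.817). Its direction in either line turned under other settings, to -0.15 in A375 when the expected counts were not rounded. In A375-BIR it turned to 0.0025 with scaling to totals that left out rRNA-like rows. Those are 17 precursor rows whose hairpin matches the 45S pre-rRNA over at least 18 unbroken bases. They took 2.65% to 5.59% of a library's counts under DMSO and 14.4% to 26.3% under dabrafenib. Without them MIR107 kept the sign of its fitted change in both lines but not its size. It was 0.70 against 0.49 in A375 and -0.10 against -0.48 in A375-BIR.

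The responses of the lines to dabrafenib were compared directly. The response of MIR107 in A375 minus that in A375-BIR was 0.97 ± 1.62 on the log2 scale (edgeR FDR 0.920), and that of the family sum was 0.52 ± 1.58 (FDR 1.00). Of all 538 rows 5 passed this test, or 0.929%. A difference in response was not detectable at this depth.

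The miR-15 and miR-16 group was better counted. MiR-15, miR-16 and miR-424 are known to restrain the cell cycle, and their seeds overlap that of miR-103 and miR-107 with a shift of 1 position. These are shown with the seed in capitals.
miR-15b-5p: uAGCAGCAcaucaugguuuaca
miR-16-5p: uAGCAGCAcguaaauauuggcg
miR-424-5p: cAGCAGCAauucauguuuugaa
The list of 9 rows, drawn up by name, holds 7 that carry this shifted seed, and MIR503 and MIR646, which do not. MIR6838 carries it, is not in the list and was not tested. Of the 9 rows 7 had counts and were tested, MIR503 among them. In DMSO 4 of the 7 were lower in A375 and the other 3 did not pass, where 104 of all 538 rows passed (19.3%), 67 of them lower in A375. Of the 175 better counted rows that edgeR's default filter kept, 81 passed in DMSO, 53 of them lower in A375. The median log2 change of the 7 was -1.43 against 0.11 over all rows tested and -0.16 over the 175. Over the rows that carry the shifted seed, a choice made after seeing the data, 4 of 6 tested were lower and the median was -1.40. MIR15B, the most counted, had 171.6 ± 10.1 CPM in the A375 libraries against 678.5 ± 151.1 CPM in those of A375-BIR (log2 -1.99 ± 0.32, edgeR FDR 1.27e-08). MIR16-2 differed by -1.43 ± 0.34, MIR16-1 by -1.37 ± 0.38 and MIR424 by -1.69 ± 0.39, each with an FDR below 0.05. In dabrafenib 2 of the 7, MIR15B at -2.49 ± 0.54 and MIR424 at -2.24 ± 0.56, passed in the same direction, and the other 5 did not pass, where 16.7% of all rows passed. Of the 175 rows 81 passed there. The 6 calls of the listed rows in DMSO and in dabrafenib held in all alternatives run. This list was chosen with earlier results known, and no test of the list was made.

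**Figure D5:**
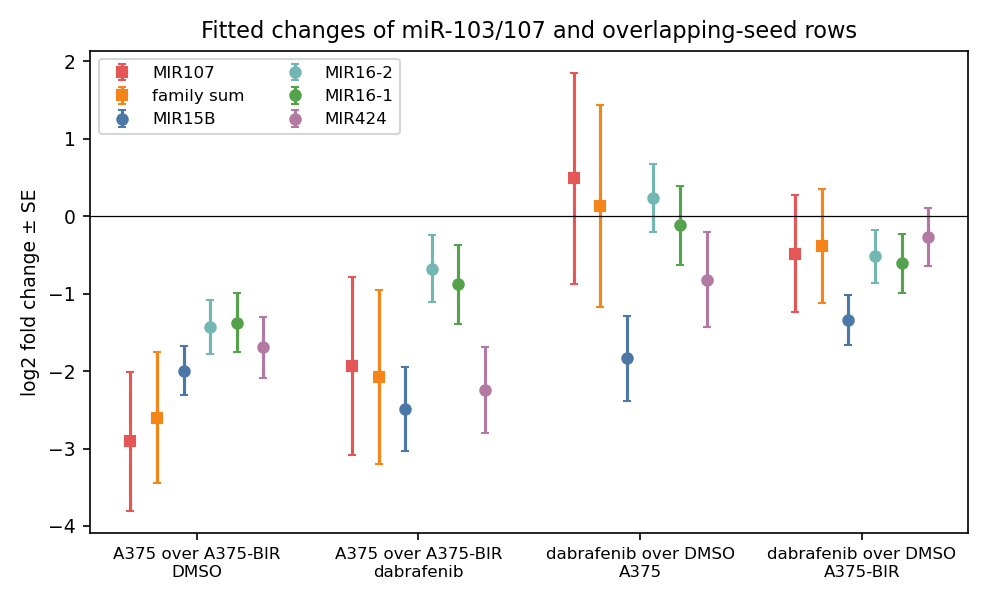
Fitted log2 fold changes with SE for MIR107, the family sum and the 4 most counted overlapping-seed rows, in 4 comparisons. The bars of MIR107 and of the sum are the widest in each comparison; in DMSO all 6 points lie between -2.91 and -1.37, and under dabrafenib against DMSO MIR15B lies below 0 in both lines.

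With dabrafenib MIR15B was lower in both lines by edgeR. It fell by 1.84 ± 0.55 on the log2 scale in A375 (edgeR FDR 0.0122) and by 1.34 ± 0.32 in A375-BIR (FDR 0.00113). The call in A375 was lost in 4 of 24 alternatives. These were DESeq2 on the same rows (adjusted p 0.118) or on the 175 rows of the default filter (0.0738), the fit without A375 dabrafenib replicate 1 (FDR 0.119) and the scaling to totals without the rRNA-like rows (FDR 0.0838). That last setting also ended the call in A375-BIR (FDR 0.0769). MIR15A passed in A375-BIR, with 62.2 ± 17.6 CPM in DMSO and no count in dabrafenib (FDR 0.0244), where a count of 0 over the group allows up to 21.04 CPM. That call was lost in 7 of the 21 alternatives that gave it an adjusted p, with an FDR of up to 0.102. DESeq2 on the same rows gave it no adjusted p there and so did not call it. In A375 the other 6 rows did not pass. The median change there was -0.14 over the 7 rows and -0.47 over the 6 with the shifted seed, against -0.12 over all rows. In A375-BIR the medians were -0.61 over the 7 and -0.56 over the 6, against 0 over all rows. With 1 of 7 called in A375 and 2 of 7 in A375-BIR, the share over all rows was 9.85% in each. Of the 175 rows of the default filter 44 passed in A375 and 36 in A375-BIR.

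Other microRNAs that lie in introns of metabolic genes were MIR378A in PPARGC1B, MIR33A in SREBF2 and MIR33B in SREBF1. All 3 were tested. In DMSO 1 of the 3 was lower in A375, where 19.3% of all rows passed. This was MIR378A, at 708.1 ± 37.1 CPM against 1146.3 ± 256.9 CPM in A375-BIR (log2 -0.75 ± 0.25, edgeR FDR 0.0182). The median of the list was -1.61, the value of MIR33B, which did not pass, against 0.11 over all rows. In dabrafenib, where 16.7% of all rows passed, 1 of the 3 did, MIR33A, which had no count in A375 in dabrafenib, where 3 counts are 22.1 CPM, and 66.6 ± 72.6 CPM in A375-BIR (FDR 0.0276). The MIR33A call was lost in 8 of 22 alternatives. Without A375-BIR dabrafenib replicate 2 its fitted log2 value was -3.83 (edgeR FDR 0.399), against -5.36 with all libraries. MIR33B, with 16.5 counts in all, did not pass in either. With dabrafenib MIR378A differed by -0.85 ± 0.27 in A375-BIR (FDR 0.0223) and by -0.79 ± 0.30 in A375 (FDR 0.0729). The change in A375 passed in 4 of 24 alternatives, with an FDR down to 0.0129, and that in A375-BIR was lost in 14 of 24. DESeq2 on the same rows called none of these, with adjusted p of 0.270 for MIR378A between the lines in DMSO, 0.231 for MIR33A and 0.130 for MIR378A with dabrafenib in A375-BIR.

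The p53-linked list holds microRNAs that p53 is known to induce or to help mature. Of its 9 rows 7 had counts and 5 were tested. In each treatment 1 of the 5 was lower in A375, MIR34A, a direct p53 target. This is close to the share over all rows, 19.3% in DMSO and 16.7% in dabrafenib. In DMSO MIR34A stood at 369.5 ± 102.0 CPM, against 1111.7 ± 279.2 CPM in A375-BIR (log2 -1.67 ± 0.27, edgeR FDR 3.42e-08), and differed by -1.89 ± 0.35 in dabrafenib (FDR 2.04e-06). The median of the list in DMSO was -0.83, the value of MIR192, against 0.11 over all rows. MIR192 differed by -0.83 ± 0.41 in DMSO (FDR 0.152), and MIR145 had 18.5 counts in all. With dabrafenib 1 of the 5 passed in A375-BIR, where 9.85% of all rows did. This was MIR143, which rose by 1.59 ± 0.31 (FDR 1.07e-05), and the calls of MIR34A and MIR143 held in all alternatives run.

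The miR-200 family, whose maturation is known to fall when miR-103 and miR-107 repress DICER1, was nearly uncounted. MIR200C had 16 expected counts over the 12 libraries, MIR200B 4, MIR141 3 and MIR200A 2, and MIR429 was at 0. Of the 5 rows 3 were tested, and 0 passed in any comparison by edgeR or by DESeq2 on the same rows; at an unadjusted p below 0.05, edgeR gave 1 of the 3 for the difference in response and 0 elsewhere. Over all 538 rows edgeR called 0.929% to 24.9%, depending on the comparison, and 51 rows had an unadjusted p below 0.05 for the difference in response, so 0 of 3 does not set this family apart. A difference in this family was not detectable at this depth.

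Rows of a list of melanocyte and melanoma microRNAs were counted, and so were markers of some other cell types. Of 8 melanocyte and melanoma microRNAs 7 had counts, led by MIR146A with 9665.5 and MIR204 with 1265, and MIR514A1 was at 0. The neuronal MIR124 rows and the hepatic MIR122 were at 0, although MIR122 faces an opposite-strand row. The 8 markers summed to 29628 ± 2219 CPM in A375 in DMSO and 17782 ± 1673 in dabrafenib, against 1449 ± 399 and 2295 ± 469 in A375-BIR. Most of this sum was MIR146A, so it mainly follows that row and does not measure melanocyte identity. The markers did not all differ. MIR211, with 25 counts in A375 and 19 in A375-BIR, did not pass over both treatments (log2 0.55 ± 0.62, edgeR FDR 0.586). Blood-cell markers had counts in 4 of 4 rows, led by MIR155 with 800.7, most of it in A375. The other blood-cell rows did not share that lean. MIR150 had 22 counts in A375 and 25 in A375-BIR, MIR142 had 7 and 15.5, and MIR223 had 5.5 and 4. Epithelial markers had counts in 3 of 4 rows, led by MIR205 with 62. The epithelial row at 0, MIR203A, also faces an opposite-strand row. Muscle markers had counts in 5 of 5 rows, led by MIR1-2 with 7.11. Their part in the MIR107 difference was not tested.

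The rows whose profile was most like the family sum were found by Pearson's r of log2 CPM over the 12 libraries. These were MIR1269A (r = 0.949), MIR30C2 (0.940), MIR31 (0.922), MIR125B2 (0.918) and MIR30A (0.917), out of 537 rows with a median r of 0.013. The points share the libraries and their depths and fall into the 2 lines, so r mainly restates the line difference and is given as a description. Each of the 5 was higher in A375-BIR by edgeR over both treatments. MIR1269A had 9 counts in A375 and 238 in A375-BIR, and MIR31 had 132 and 4542.75. MIR30C2 differed between the lines by -1.58 ± 0.17, MIR125B2 by -1.55 ± 0.22 and MIR30A by -2.47 ± 0.15 over both treatments, the last close to the -2.42 of MIR107.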

How the data were processed

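Small RNA libraries (Lexogen) from A375 and A375-BIR were sequenced on an Illumina instrument. The authors deposited expected counts per Ensembl microRNA gene, which the submitters' notes credit to RSEM 1.2.25 on hg38, so a read that matches several rows can be divided between them. The study's methods give RSEM standard parameters, which do not use strand. Rows were named by GENCODE 44, and 1877 of 1881 matched. Depth was the sum of a library's expected counts, 35070 to 122792.

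Expected counts were rounded and tested with edgeR 4.0.16's quasi-likelihood test in R 4.3.3 over all 12 libraries, with TMM scaling, Benjamini-Hochberg adjustment over all rows tested and a threshold of 0.05. edgeR's default filter kept none of the members, so the values reported use another filter, at least 1 CPM in at least 3 libraries (538 rows). At these depths 1 CPM is less than 1 count, so this filter asks only for a rounded count above 0 in 3 libraries. The 538 rows therefore include barely counted ones, such as MIR141 with 3 counts in all. Levels in CPM use library totals. Single values were compared by exact two-sided permutation tests. Counting intervals are exact binomial at 95% on rounded counts and cover counting error only. Alternatives were other filters, scalings, DESeq2 1.42.0, a replicate block and each library left out. Replicate pairs differed by more than counting noise (chi-square per degree of freedom 2.51 to 32.1). The highest values, 29.4 and 32.1, were those of A375-BIR DMSO replicate 3 against replicates 1 and 2. Those 2 replicates gave 2.51 with each other.

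The labels number the biological replicates 1 to 3 in each group. Deviations from the group means in same-numbered libraries correlated at 0.11, 0.22 and 0.30 between A375 and A375-BIR in DMSO, so the numbers were taken to pair these groups. This pairing is an assumption, since these correlations are low and libraries of unlike number were not compared. Between A375-BIR in DMSO and in dabrafenib the values were -0.32, 0.0059 and -0.54. With a replicate block MIR107 differed by -2.89 in DMSO and kept its call.

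The members and the gene lists were chosen with earlier results of these data known. The rows named were the members, their antisense rows, the listed genes (of each list up to 4, those with the most counts, and every row that passed), the whole miR-200 family, the rows in which the seed list by name and by sequence differ, the 5 rows most like the family sum, and the marker, copy and opposite-strand rows used for comparison.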

Additional observations from a re-analysis of the deposited data

How the results depend on the processing

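MIR107 and the family sum kept their direction between the lines in every alternative that gave a value, and MIR107 kept its call over both treatments and in DMSO in each. Across alternatives the FDR in DMSO ran from 0.00443 to 0.0464 for MIR107 and from 0.00780 to 0.0617 for the sum, which lost its call in DMSO without A375-BIR DMSO replicate 2 (-2.53) and without A375 DMSO replicate 3 (-2.45); fewer libraries were then fitted. Leaving out each library in turn, the sum ranged from -2.80 to -2.45 in DMSO, from -0.19 to 0.57 for dabrafenib in A375, and the MIR107 share difference from -3.10 to 7.63 percentage points.

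Reversed values, none of them called, were -0.15 for the sum with dabrafenib in A375 when counts were not rounded, and 0.0025 for the sum with dabrafenib in A375-BIR under totals without rows that share 18 bases with the 45S pre-rRNA. Both settings were chosen after seeing the data, as was DESeq2 on the 538 rows. The cause was not tested. The sum with dabrafenib in A375 also turned without A375 DMSO replicate 3, A375 dabrafenib replicate 1 or A375 dabrafenib replicate 2. The replicate block kept every call of MIR107 and the sum (-2.59 for the sum in DMSO) and ended that of MIR378A with dabrafenib in A375-BIR (FDR 0.0637), which 14 of 24 alternatives ended. Outside the DMSO groups of both lines, same-numbered libraries correlated at -0.54 to 0.19. The call of MIR378A between the lines in DMSO was lost in 10 of 24 alternatives and that of MIR33A in dabrafenib in 8 of 22.

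The number of precursors called with dabrafenib in A375-BIR fell from 53 to between 26 and 33 with totals as scale, with totals without rRNA-like rows, with DESeq2 on 175 rows, with only the libraries compared, and without A375-BIR DMSO replicate 2 or A375-BIR dabrafenib replicate 1 (30 each). In A375 it fell from 53 to 28 with the totals without pre-rRNA matches. For the difference in response it was 2 to 3 against 5 under 6 settings. The number also rose in some fits. With each library left out in turn it ran from 30 to 60 for dabrafenib in A375-BIR, from 38 to 66 for dabrafenib in A375, and from 2 to 7 for the difference in response. The scaling moved the median of all rows between -0.12 and 0.16 for the lines over both treatments. Against that median MIR107 lay between -2.41 and -2.36. The default filter, and DESeq2 on the rows it kept, could give no value for any member.

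Depth limits the A375 side, where MIR107 had 0.33 to 1.33 expected counts per library, and it limits any drug effect.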
